A study of Mus musculus with 6 samples.

Results

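The genes described here copy the genome in S phase and supply its nucleotides: the replicative helicase and its loaders, the kinases that start origins, the polymerases, the sliding clamp and its loader, the enzymes that join the lagging strand, the single-strand binding protein, the enzymes of deoxynucleotide synthesis, and factors that act on chromatin behind the fork. They were taken as a list of 42 genes, each measured by array probe sets that the platform annotation pairs with that gene alone. Such a probe set was present for 41 of the 42, and 40 were bright enough to test, out of 12994 genes tested on the arrays. Chaf1a, the large subunit of the chromatin assembly factor, had no probe set of its own. Tyms, which makes the thymidine nucleotide of DNA, had 4 probe sets, each of which reached 16 intensity units on at most 1 array, and was not tested.

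As background, replication origins are marked by the origin recognition complex, and Cdc6 and Cdt1 load the Mcm2-7 ring onto DNA there in G1 phase. The Cdc7-Dbf4 kinase and cyclin E with its partner kinase then turn the ring into a working helicase together with Cdc45, the GINS complex and Mcm10, and polymerases follow on a clamp made of Pcna. In the gut these genes are active in the dividing cells of the crypts and of the intervillus region of young animals, and much less so in the mature enterocytes that cover the villi. Many of them are transcribed at the passage from G1 to S phase under E2F factors.

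Total RNA came from epithelial cells shaken off the small intestine of C57BL/6 mice at 14 days of age (2 weeks) with a calcium chelator, and each of the 6 samples was hybridized to 1 Affymetrix mouse array. The 3 replacement samples carried the genotype Ecadflox/Ncad;Vil-Cre. That is a floxed E-cadherin allele, an allele that expresses N-cadherin, and Cre recombinase under the villin promoter, which is active in the gut epithelium. The genotype is meant to give the epithelium N-cadherin in place of E-cadherin. The 3 control samples are given only as control, from littermates with E-cadherin, and the labels do not say which of these alleles they carry. The labels also do not say whether each sample was 1 animal or a pool, so p-values measure only the spread between these samples. In bulk RNA a higher or lower share of a cell type cannot be told apart from more or less RNA per cell of it.

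Values are linear probe set intensities, raised to 16 where lower and then taken to log2, and a difference is replacement minus control on the log2 scale. Every tested member reached at least 26.1 on all 6 arrays, so none of them passed the filter on dim probe sets through 1 group alone. The targeted gene Cdh1, which encodes E-cadherin, read 2757.4, 2334.8 and 2203.5 on the control arrays and 1073, 1174.6 and 1356.6 on the replacement arrays. The difference was -1.06 (SE 0.240, limma adjusted p = 0.0250), so its level followed the labels, though Cdh1 signal remained on every replacement array. Controls 2 and 3 differed by little more than hybridization control spots did (SD of the log2 ratio 0.115 over 5109 bright probe sets, against 0.347 to 0.564 for other pairs within a group), and they were counted as 1 sample, which leaves 2 control and 3 replacement replicates. By Xist and the Y-linked gene Eif2s3y, control 1 and replacements 2 and 3 read as female and the other 3 arrays as male.

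Replication genes lay on the higher side in the replacement epithelium, with 4 members past the test. Rrm2, Mcm5, Cdc6 and Dbf4 rose by 2.10 to 3.01 times (limma, adjusted p over all genes under 0.05), and no member fell. That is 4 of 40 tested members, or 10%, where 580 of all 12994 genes were called higher, 4.46%, and 605 lower, 4.66% (1185 in either direction, 9.12%). The differences of the 40 members ran from -0.29 for Rfc3 to 1.59 for Rrm2 with a median of 0.36, beside a median of -0.02 over all genes. The difference lay above 0 in 34 of the 40 members, beside 48.0% of all genes. In 16 members every replacement array was above every control array, beside 17.8% of all genes, and in 1, Mcm2, every replacement array was below, beside 18.8%. Before adjustment 13 members had p under 0.05 on the higher side (11.4% of all genes) and 0 on the lower side (12.9%), and with the trend and robust options of limma 0 members were called lower as well.

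The number of called members rested on single arrays. It was 0 without control 1, 0 without controls 2 and 3, 8 without replacement 1, 1 (Rrm2) without replacement 2 and 0 without replacement 3. Without control 3 it was 3, where Cdc6 was no longer called, and without control 2 it was 5. Leaving out control 1, or controls 2 and 3 together, leaves 1 control replicate, whose spread is then taken to be that of the other group. With all 6 arrays as separate replicates 11 members were called higher, with no filter on dim probe sets 0, and with the floor at 1 in place of 16 there were 2. The median difference was less dependent on these choices, between 0.29 and 0.52 under every alternative run.

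**Figure D1:**
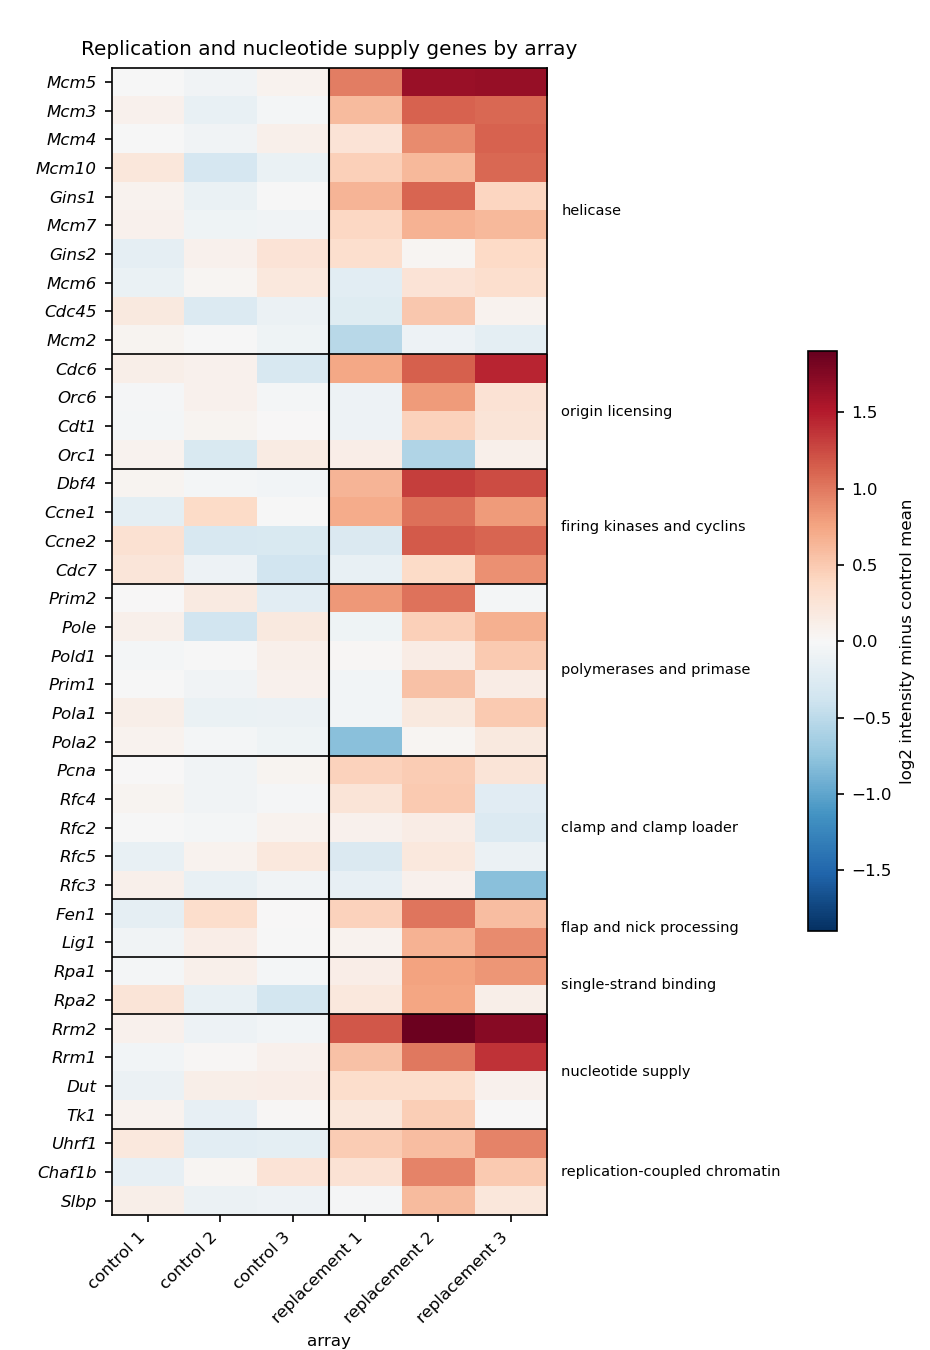
Log2 intensity of each of the 40 tested members on each of the 6 arrays, as a difference from the mean of the control group (controls 2 and 3 averaged first). Rows are genes grouped by role, columns are arrays, red is above and blue below the control mean. The median over members was 0.21 on replacement 1, 0.60 on replacement 2 and 0.45 on replacement 3, and Rrm2 and Mcm5 are the reddest rows.

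To show the regulatory sequence next to the values, the promoter windows of the 4 genes that rose are given with that of Mcm6. It is a ring subunit that was not called, picked by hand, and it has the most E2F letters of the 5 windows. Each is 300 bases long, from 250 before to 50 after the start of transcription, 5′ to 3′ in the direction of the gene, from RefSeq on GRCm38.p6. The windows are chr12:24708004-24708303 on the plus strand for Rrm2, chr8:75109259-75109558 on the plus strand for Mcm5, chr11:98907901-98908200 on the plus strand for Cdc6, chr5:8422667-8422966 on the minus strand for Dbf4 and chr1:128359656-128359955 on the minus strand for Mcm6. Capitals mark matches to the E2F letters TTTCCCGC, TTTGGCGC, TTTCGCGC or TTTGCCGC on either strand, where matches that overlap run together.
Rrm2: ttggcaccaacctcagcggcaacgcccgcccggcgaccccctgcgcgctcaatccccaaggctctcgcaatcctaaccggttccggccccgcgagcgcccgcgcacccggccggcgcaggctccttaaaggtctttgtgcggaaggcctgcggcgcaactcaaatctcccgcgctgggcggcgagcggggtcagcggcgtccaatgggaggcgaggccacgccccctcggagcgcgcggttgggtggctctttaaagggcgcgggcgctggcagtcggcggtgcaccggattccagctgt
Mcm5: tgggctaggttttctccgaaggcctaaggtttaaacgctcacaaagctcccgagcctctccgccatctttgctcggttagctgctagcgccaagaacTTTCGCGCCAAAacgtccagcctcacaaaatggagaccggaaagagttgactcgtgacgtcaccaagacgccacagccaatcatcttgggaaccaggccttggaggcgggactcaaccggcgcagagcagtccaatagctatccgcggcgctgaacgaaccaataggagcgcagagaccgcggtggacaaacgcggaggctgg
Cdc6: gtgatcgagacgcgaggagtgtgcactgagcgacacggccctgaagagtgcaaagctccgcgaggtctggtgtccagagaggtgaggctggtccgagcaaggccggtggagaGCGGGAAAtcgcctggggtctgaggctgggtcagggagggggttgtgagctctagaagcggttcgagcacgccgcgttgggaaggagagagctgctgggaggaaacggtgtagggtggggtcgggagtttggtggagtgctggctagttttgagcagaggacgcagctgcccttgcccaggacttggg
Dbf4: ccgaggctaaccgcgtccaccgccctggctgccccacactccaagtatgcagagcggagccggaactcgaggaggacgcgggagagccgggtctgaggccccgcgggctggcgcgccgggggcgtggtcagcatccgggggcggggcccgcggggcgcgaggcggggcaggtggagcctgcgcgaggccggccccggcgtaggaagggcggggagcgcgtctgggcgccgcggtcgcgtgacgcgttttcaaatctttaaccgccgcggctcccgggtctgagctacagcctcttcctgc
Mcm6: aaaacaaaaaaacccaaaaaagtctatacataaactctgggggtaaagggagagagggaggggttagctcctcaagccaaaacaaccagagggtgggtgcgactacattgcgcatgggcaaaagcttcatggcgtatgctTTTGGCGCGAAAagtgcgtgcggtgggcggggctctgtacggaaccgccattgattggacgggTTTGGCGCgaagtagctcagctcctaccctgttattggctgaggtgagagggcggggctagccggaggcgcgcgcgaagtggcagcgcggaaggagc

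The Mcm5 window had 2 overlapping matches, which begin at positions -153 and -149 from the start, and the Cdc6 window had 1, at -138. The Mcm6 window had 3, of which those at -110 and -106 overlap and the third begins at -47. The windows of Rrm2 and Dbf4 held none of these letters. The letters CCAAT, the core of the CCAAT box, stood at -50 in the Rrm2 window, at -77, -22 and 6 in that of Mcm5, and on the opposite strand at -57 and -14 in that of Mcm6, and in neither of the other two. Dbf4 had the letters TTTGAA of the cell cycle element CHR on the opposite strand at -3. So members with and without the E2F letters were among those that rose.

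Of the 42 members, 35 had at least 1 promoter window, 41 windows in all. The E2F letters stood in 12 of these 41 windows, 29.3%, and in 744 of the 32851 promoter windows of all genes, 2.26%. CCAAT stood in 53.7% of member windows and 37.4% of all windows, and the CHR letters (TTTGAA or TTCGAA, either strand) in 19.5% and 19.2%. The member promoters with E2F letters were those of Mcm3, Mcm5, Mcm6, Mcm7, Orc1, Cdc6, Cdt1, Pola1, Pold1, Rfc3, Lig1 and Uhrf1. Their median difference was 0.38 with a range of -0.29 to 1.42, and that of the 21 tested members whose windows lack the letters was 0.36 with a range of -0.27 to 1.59. The letters are thus frequent in front of replication genes, and the differences of members with and without them covered nearly the same range. Only exact matches to these letters were counted, so E2F sites with other letters would be missed. A role of E2F factors in the differences was not tested.

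The helicase had the largest group of members. Mcm5, a subunit of the Mcm2-7 ring, read 316.3, 303.7 and 331.7 on the control arrays and 623.4, 989.1 and 992.8 on the replacement arrays. All replacement arrays lay well above the controls, with replacement 1 the lowest of them, a difference of 1.42 (SE 0.274, 2.68-fold, limma adjusted p = 0.0127). Mcm2, another subunit of the same ring, read 268.5, 258.7 and 245.8 in the controls and 179.7, 243.7 and 227.9 in the replacements. On this probe set its 3 replacement arrays all lay under the controls, by a small margin on replacement 2. Mcm2 was not called (difference -0.27, SE 0.242, limma adjusted p = 0.548). On its other probe set the groups overlapped, with replacement 3 at 226.2 among controls of 231.2, 189.2 and 200.3. The 95% intervals of the differences of Mcm5 (0.81 to 2.04) and Mcm2 (-0.82 to 0.27) do not meet. These genes were named for the smallest p and the lowest difference of the helicase group, so some gap between them follows from that choice. The difference between them was not tested.

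The other ring subunits lay between them, with Mcm3 at 0.94, Mcm4 at 0.76, Mcm7 at 0.56 and Mcm6 at 0.13, none of them called. Mcm3, named here after its values were seen, was the uncalled member closest to the threshold. It read 216.9, 186.0 and 199.6 in the controls and 309.7, 442.7 and 437.1 in the replacements, with no overlap (SE 0.256, adjusted p = 0.0516). Mcm6, named for the same reason, read 448.7, 500.0 and 560.1 in the controls and 424.2, 583.3 and 608.4 in the replacements, so the groups overlap. The remaining helicase members are the activators Cdc45, Gins1 and Gins2, and Mcm10, which helps to start unwinding. Their differences ran from 0.11 for Cdc45 to 0.72 for Mcm10, with none called. Over the 10 helicase genes 1 was called higher (4.46% of all genes) and 9 lay above 0 (48.0%). The arrays of 6 did not overlap on the higher side (17.8%), and the median was 0.64.

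**Figure D2:**
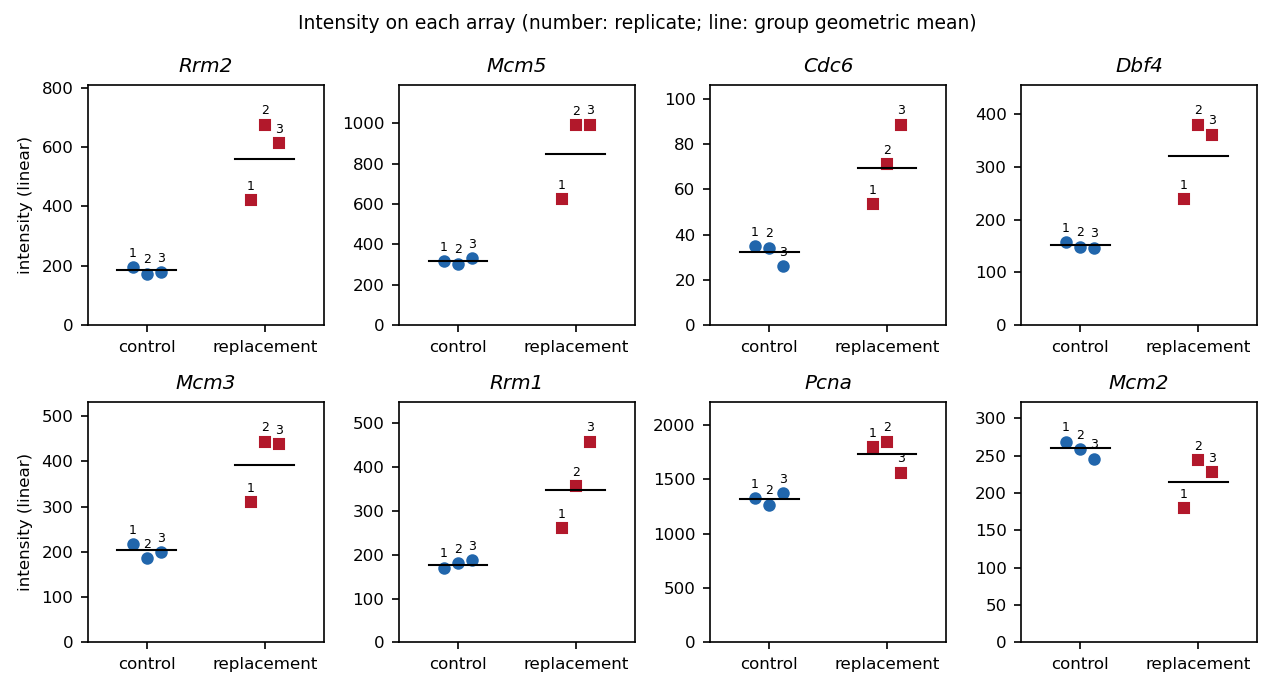
Linear intensity on each array for 8 members: the 4 that rose (Rrm2, Mcm5, Cdc6, Dbf4), Mcm3 and Rrm1 just over the threshold, and Pcna and Mcm2. Points are arrays, numbers above them are replicates, lines are the geometric means of the groups (controls 2 and 3 averaged first), and every axis starts at 0. Replacement 1 is the lowest replacement array in all of them but Pcna, and Mcm2 is the one whose replacement arrays lie under the controls.

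Among the genes that license origins, Cdc6, the ATPase that brings the ring to the origin recognition complex, rose from a low level. It read 34.9, 34.2 and 26.1 in the controls and 53.5, 71.0 and 88.5 in the replacements (difference 1.11, SE 0.273, 2.15-fold, limma adjusted p = 0.0355). Its replacement arrays spread widely but did not reach down to the controls. Orc1, the largest subunit of the recognition complex, read 63.9, 50.1 and 68.2 in the controls and 66.9, 41.0 and 65.6 in the replacements, where replacement 2 was the lowest array and the other two lay among the controls (difference -0.11, SE 0.279, adjusted p = 0.851). On a dimmer probe set Orc1 differed by 0.83, and there too the groups overlapped. Orc6, a small subunit of the complex, and Cdt1, the partner of Cdc6 in loading, differed by 0.33 and 0.20 and overlapped. Of the 4 licensing genes 1 was called higher, beside 4.46% of all genes, and the median was 0.26.

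The kinases and cyclins that fire origins had the largest median of the role groups, 0.76 over 4 genes. Dbf4, the regulatory subunit that activates the Cdc7 kinase, read 158.0, 148.6 and 147.4 in the controls and 239.3, 380.7 and 361.7 in the replacements (difference 1.07, SE 0.270, 2.10-fold, limma adjusted p = 0.0397). The controls were tightly grouped and every replacement array stood above them. Its catalytic partner Cdc7 read 56.7, 45.4 and 37.4 in the controls and 43.7, 62.1 and 88.1 in the replacements (difference 0.36, SE 0.321, adjusted p = 0.550). For Cdc7 replacement 1 lay inside the range of the controls. The cyclins of the G1 to S passage, Ccne1 and Ccne2, differed by 0.85 and 0.67 and were not called. The arrays of Ccne1 did not overlap, while Ccne2 read 52.4 on replacement 1, at the level of controls 2 and 3, and 142.9 and 136.3 on the other replacement arrays.

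None of the 6 polymerase and primase genes was called, beside 9.12% of all genes. The arrays of all 6 overlapped between the groups, where 17.8% of all genes lay apart on the higher side and 18.8% on the lower. Prim2, the large primase subunit, had the smallest p of the 6. It read 70.3, 78.8 and 60.7 in the controls and 123.8, 142.6 and 68.2 in the replacements, so replacement 3 lay among the controls (difference 0.61, SE 0.324, limma adjusted p = 0.290). Pola2, the accessory subunit of polymerase alpha, read 128.2, 119.5 and 116.0 in the controls and 70.5, 125.8 and 139.3 in the replacements (difference -0.20, SE 0.315, adjusted p = 0.765). Here replacement 1 alone was low and the other two were at or above the controls. Pola1 and Prim1, the catalytic subunits of the priming polymerase, and Pold1 and Pole, those of the lagging and leading strand polymerases, differed by 0.21 to 0.35, and the median of the 6 was 0.22.

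The clamp and its loader were the group nearest to 0, with a median of -0.01 over 5 genes. Pcna, the sliding clamp that holds polymerases on DNA, was the brightest member, at 1322.4, 1265.6 and 1370.0 in the controls and 1796.0, 1842.5 and 1558.4 in the replacements. Its arrays did not overlap, but the difference of 0.39 (SE 0.228, 95% interval -0.12 to 0.90) was not called (limma adjusted p = 0.339). The loader subunit Rfc3 read 118.6, 100.2 and 105.8 in the controls and 99.4, 117.5 and 63.5 in the replacements, where replacement 3 stood low (difference -0.29, SE 0.296, adjusted p = 0.614). The subunits Rfc2, Rfc4 and Rfc5 lay between -0.06 and 0.17, and all overlapped. An interval such as that of Rfc2, -0.55 to 0.52, does not show that the loader was unaltered.

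On the lagging strand, Fen1, the nuclease that removes primer flaps, read 215.6, 304.5 and 244.6 in the controls and 328.6, 491.2 and 362.7 in the replacements (difference 0.68, SE 0.265, limma adjusted p = 0.149). Lig1, the ligase that seals the remaining nick, read 169.5, 193.8 and 175.7 in the controls and 185.6, 280.6 and 329.0 in the replacements (difference 0.54, SE 0.286, adjusted p = 0.283). Fen1 did not overlap between the groups, and Lig1 overlapped through replacement 1. Rpa1, the large subunit of the single-strand binding protein, read 409.5, 449.4 and 410.9 in the controls and 459.0, 715.1 and 750.7 in the replacements (difference 0.58, SE 0.276, adjusted p = 0.235). Its smaller partner Rpa2 read 104.1, 79.9 and 68.8 in the controls and 100.8, 148.3 and 95 in the replacements (difference 0.36, SE 0.285, adjusted p = 0.499). In Lig1 and Rpa1 the height came from replacements 2 and 3. None of the 4 genes was called, beside 9.12% of all genes.

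Nucleotide supply held the member that rose most. Rrm2, the small subunit of ribonucleotide reductase, the enzyme that turns ribonucleotides into deoxyribonucleotides, read 195.7, 173.3 and 178.4 in the controls and 421.1, 675.7 and 613.8 in the replacements. The lowest replacement array was above the highest control by a wide margin (difference 1.59, SE 0.270, 3.01-fold, limma adjusted p = 0.00707). Rrm1, the large subunit of the same enzyme, named after its values were seen, read 171.0, 181.1 and 187.5 in the controls and 260.4, 356.5 and 457.8 in the replacements. It did not overlap either but missed the threshold (difference 0.98, SE 0.281, adjusted p = 0.0615). Tk1, the salvage kinase for thymidine, read 155.3, 134.0 and 151.9 in the controls and 172.5, 206.0 and 149.3 in the replacements (difference 0.23, SE 0.243, adjusted p = 0.626). Dut, which removes dUTP from the pool, differed by 0.25. Of the 4 measured supply genes 1 was called higher (4.46% of all genes), all 4 lay above 0 (48.0%), and the median was 0.61.

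In the chromatin group Uhrf1, which brings the maintenance methyltransferase to newly made DNA, read 251.0, 190.6 and 192.7 in the controls and 307.8, 330.2 and 423.7 in the replacements (difference 0.68, SE 0.257, limma adjusted p = 0.140). Slbp, the protein that binds histone messages in S phase, read 520.8, 445.5 and 449.4 in the controls and 476.2, 732.3 and 560.4 in the replacements (difference 0.27, SE 0.262, adjusted p = 0.594). Chaf1b, a subunit of the assembly factor that places histones on new DNA, differed by 0.57 with no overlap. None of these 3 was called, beside 9.12% of all genes.

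**Figure D3:**
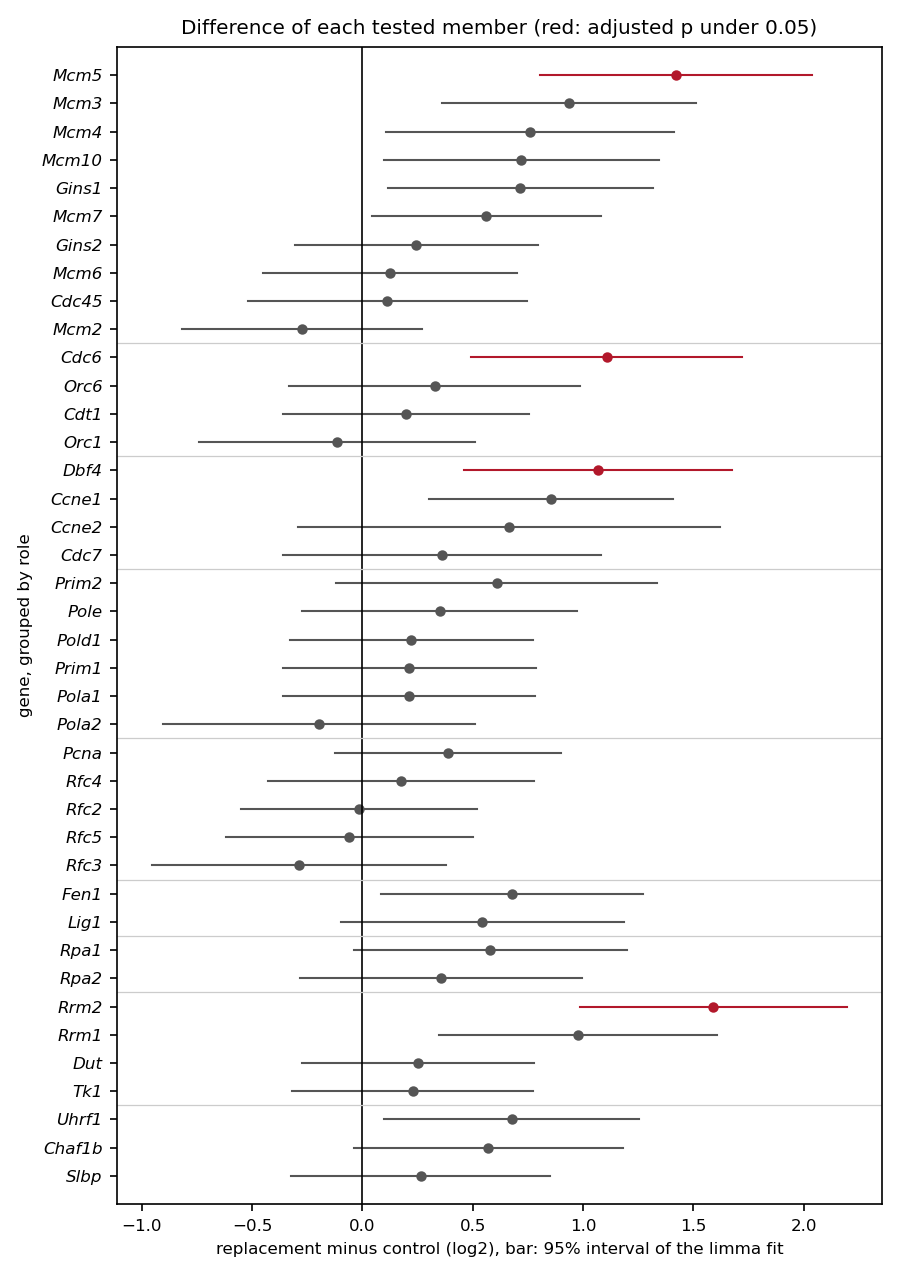
Difference of each tested member, replacement minus control on the log2 scale, in role groups from helicase at the top to chromatin at the bottom. Points are the fitted differences, bars their 95% intervals from limma, and red marks adjusted p under 0.05. The 4 red points are Mcm5, Cdc6, Dbf4 and Rrm2, and the clamp loader genes lie around 0.

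The replacement arrays were not alike. Members were above the control mean in 26 of 40 on replacement 1, 38 of 40 on replacement 2 and 34 of 40 on replacement 3, with median shifts of 0.21, 0.60 and 0.45. On the control arrays the medians were 0.05, -0.06 and -0.02. Replacement 1 was the lowest replacement array in 29 of 40 members, beside 38.0% of all genes, while replacement 2 was the highest in 23 and replacement 3 in 15. The called genes shared that order: Rrm2, Mcm5, Cdc6 and Dbf4 were all lowest on replacement 1.

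Replacement 1 was also the only replacement array that read as male, so sex and that array cannot be told apart. Within the arrays read as male, replacement 1 against controls 2 and 3, the median difference of the members was 0.18 and 30 of 40 lay above 0. Within those read as female, replacements 2 and 3 against control 1, it was 0.44 and 36 of 40. The female difference was the larger in 29 members, where the male one was below it in 48.3% of all genes. Both were above 0 in 28 members and they had opposite signs in 10. Over all 12994 genes the male difference was above 0 in 6534 and the female one in 6054. Both were above 0 in 3884 of those genes, and the signs were opposite in 4850.

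The 4 called genes were higher in each sex: Rrm2 by 1.26 in male and 1.72 in female arrays, Mcm5 by 0.97 and 1.65, Cdc6 by 0.84 and 1.18, and Dbf4 by 0.69 and 1.23. Lig1 differed by 0.01 and 0.84, Rpa1 by 0.10 and 0.84, and Pola2 by -0.74 and 0.05. A fit with a term for the difference between the sexes, added after the data were seen, called 0 of the 40 members (smallest adjusted p 0.586, and 0 with an unadjusted p under 0.05) and 0 of all genes (limma, 7.80% with an unadjusted p under 0.05). That fit leaves 1 residual degree of freedom per gene, so a null result in it says little.

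**Figure D4:**
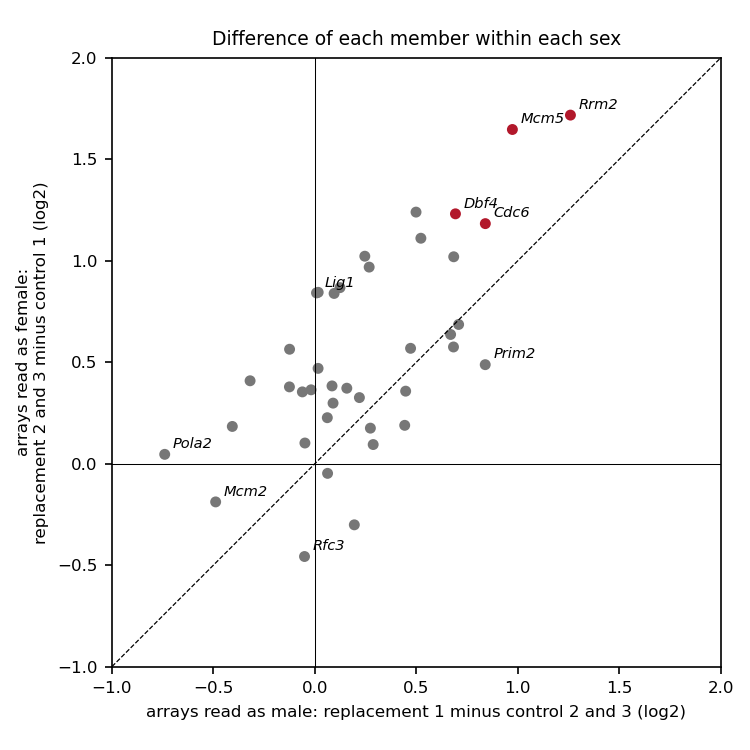
Difference of each tested member within the arrays read as male (horizontal axis, replacement 1 minus controls 2 and 3) and as female (vertical axis, replacements 2 and 3 minus control 1), on the log2 scale. The dashed line marks equal differences, and red marks the 4 genes that rose. Of the 40 points 29 lie above the dashed line.

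Several members are measured by more than 1 probe set, and these did not always match. The 41 members have 91 probe sets, of which 76 were bright enough, with 63 above 0 and 13 below. Rrm2 was higher on all 3 of its probe sets, by 1.85, 1.59 and 1.56. Mcm5 differed by 1.42 on the brightest of its 3, by 0.99 on the next, and by 0.17 on a probe set that read at most 31.6. Dbf4 and Cdc6 rest on 1 bright probe set each.

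Among members that were not called, all 5 probe sets of Mcm3 lay above 0, from 0.63 to 1.65, and both of Mcm2 lay below, at -0.27 and -0.23. Mcm6 differed by 0.13 on the probe set used, where the groups overlapped, and by 0.64 on another, where they did not. Dut, Orc1, Rfc4 and Slbp each had 1 probe set of the opposite sign, with Orc1 at 0.83 on a dimmer set. When every bright probe set was fitted on its own, an alternative added after the data were seen, 5 member probe sets were called higher, 3 of Rrm2, 1 of Mcm5 and 1 of Mcm3. In that fit 2.21% of 26664 probe sets were called higher and 1.83% lower, and Cdc6 and Dbf4 were not called (limma adjusted p = 0.0827 and 0.0877). By the suffix of their names the probe sets used for Mcm5, Rrm2, Mcm2, Mcm3, Mcm7, Ccne1, Fen1 and Gins2 may also bind related transcripts, so their values are less certain.

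The rest of the replication and cell cycle machinery was read from lists of 95 further genes, of which 92 were tested. Of these 6 were called higher, 6.52% beside 4.46% of all genes, and 1 lower, beside 4.66%, so the shares were near the background. The difference lay above 0 in 64 of them (48.0% of all genes), and the median was 0.33. Among 17 other helicase and origin genes only Orc2, a core subunit of the recognition complex, was called (difference 1.09, SE 0.238, limma adjusted p = 0.0220). It read 50.5, 52.2 and 47.2 in the controls and 91.5, 107.7 and 121.7 in the replacements. Next by p came Mtbp, Mcmbp and Topbp1 at 0.80, 0.83 and 0.64, and the median of this list was 0.13.

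Among 23 other fork genes none was called, beside 9.12% of all genes, and 15 lay above 0, beside 48.0%. Their median was 0.29 (unadjusted p under 0.05 in 1 higher and 0 lower, and 0 called with the trend and robust options of limma). The smallest p values belonged to Pole2, a subunit of polymerase epsilon, at 0.58, Timeless of the fork protection complex at 0.64, the histone chaperone Asf1b at 0.57 and the chromatin remodeller Hells at 0.76. Among 17 tested genes of nucleotide synthesis and turnover 13 lay above 0, beside 48.0% of all genes, with a median of 0.52. Gart and Atic, enzymes of purine synthesis, rose by 1.04 and 0.95 (limma adjusted p = 0.0353 for both). Ctps, which makes CTP, and Paics, another purine enzyme, differed by 0.83 and 0.81 and were not called.

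Genes that control the passage from G1 to S phase moved in both directions. E2f8, an atypical E2F that represses E2F targets, fell from 361, 403.4 and 370.6 in the controls to 116.3, 116.7 and 116 in the replacements (difference -1.68, SE 0.222, limma adjusted p = 0.00197). Myc, a transcription factor that drives growth and division, rose (difference 1.13, SE 0.294, adjusted p = 0.0429). Tfdp1, the partner of the E2F factors, differed by 1.05 (adjusted p = 0.0524) and the inhibitor Cdkn1b by -0.82 (adjusted p = 0.0878). Of the 24 genes 13 lay above 0, beside 48.0% of all genes, and the median was 0.08. The call of E2f8 was lost without control 1 (adjusted p = 0.0763) and without controls 2 and 3 (0.0943), and it held under the other alternatives run.

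Markers of S, G2 and M phase had the highest median of these lists. All 11 tested genes lay above 0, beside 48.0% of all genes, with a median of 0.85. Of them 2 were called higher, 18.2% beside 4.46% of all genes. Cdc20, which activates the anaphase promoting complex, rose by 1.47 (SE 0.267, limma adjusted p = 0.00991) and Ccna2, the cyclin of S and G2 phase, by 1.39 (SE 0.267, adjusted p = 0.0126). Plk1 and Ccnb2, a kinase and a cyclin of mitosis, differed by 0.89 each. Called genes were 6 of 92 higher in all. In all 6 replacement 1 was the lowest replacement array, beside 38.0% of all genes. The count of 6 went to 0 without control 1, without controls 2 and 3, or without replacement 3, to 1 without replacement 2, to 16 without replacement 1, and to 19 with all 6 arrays as separate replicates.

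**Figure D5:**
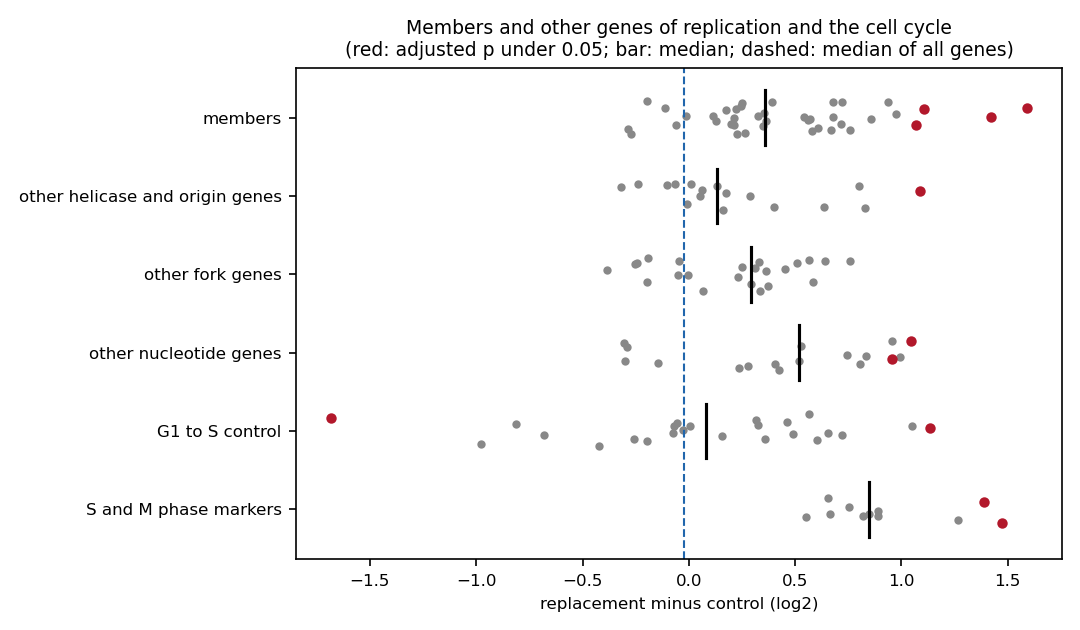
Difference of each tested gene, replacement minus control on the log2 scale, for the 40 members and for 5 further lists of replication and cell cycle genes. Points are genes, red marks adjusted p under 0.05 in limma, black bars are list medians and the dashed line is the median of all genes. The medians run from 0.08 for G1 to S control to 0.85 for S and M phase markers, and the red point at -1.68 is E2f8.

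Summed levels of cell type markers differed between the arrays as well. The summed intensity of 11 epithelial markers was 34510 to 36620 in the controls and 32570 to 43630 in the replacements. Within it Krt20, a keratin of mature enterocytes, was called higher (difference 1.35, limma adjusted p = 0.0274). Lct (lactase), Fabp1, Fabp2 and Alpi, also enterocyte genes, went the other way, by -0.87, -0.32, -0.12 and -0.11. None of these was called (limma adjusted p = 0.117 for Lct). Of all 11 epithelial markers 7 lay above 0, beside 48.0% of all genes. Every replacement array was above every control array in Krt20, Krt8 and Krt18, 3 of the 11 genes, beside 17.8% of all genes. Lct was the 1 gene with every replacement array below, beside 18.8%. The summed intensity of 11 leukocyte markers was 2794 to 3140 in the controls and 1167 to 1824 in the replacements. Cd3e, Cd3g and Cd79b were under 16 on all arrays. Most of that sum was 1 of the 3 probe sets of Csf1r, a receptor of macrophages, which was called lower (difference -1.44, limma adjusted p = 0.0143). It read 2427, 2442.5 and 2504 in the controls, far above Cd68, another macrophage marker, at 38.6, 34.4 and 46.6. Cd68 was not called (difference -0.46). Without Csf1r the other 10 summed to 713.1, 351.3 and 331.1 in the controls and 552.8, 395.5 and 429 in the replacements, so the groups overlap. Fibroblast markers summed to 1222 on control 1, 212 to 215.8 on the other controls and 395.4 to 511 in the replacements. Endothelial markers summed to 130.6 to 323 in the controls and 133.5 to 214.6 in the replacements, and smooth muscle markers to 172.6 to 343.8 and 152.6 to 256.2, with Cnn1 under 16 on all arrays. Erythroid markers summed to 71.7 to 116.1 in the controls and 93 to 105.7 in the replacements.

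Of the 7 crypt stem and Paneth cell markers measured, the sum was 5814 to 9404 in the controls and 5081 to 5821 in the replacements. Members of this list differed in both directions. The stem cell markers Lgr5, Olfm4 and Ascl2 differed by -0.53, -0.42 and -0.18 and Smoc2 by 0.28, none of them called. Mmp7, a Paneth cell protease, was called higher (difference 1.30, limma adjusted p = 0.0440), while the Paneth cell markers Itln1 and Lyz1 differed by -1.09 and -0.53 and were not called. Control 1 had the highest sum of the controls for every one of these lists except the epithelial one. Replacement 1, the replacement array on which most replication genes were lowest, had the highest sum of the replacements for every list but fibroblast markers. There it had the lowest, 395.4. For the crypt stem and Paneth cell markers the margin was small, 5821 against 5813 on replacement 2. Its epithelial sum was the highest of all arrays. The part of these cell types in the differences of the replication genes was not tested.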

How the data were processed

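Total RNA of 6 samples was measured on 1-colour Affymetrix arrays, and the samples were grouped by genotype label. The deposited table holds linear intensities for 45101 probe sets, scaled by the authors to a trimmed mean of 100 per array, as the values show. GCRMA and limma are named in the submitters' processing notes. GCRMA writes log2 values, which the deposited intensities are not, and how probes were summarised is not given in the sources. Precision is limited by the small number of arrays.

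Intensities were floored at 16 and taken to log2. Probe sets that reached 16 on 3 or more of the 6 arrays were used (26664, 59.1%). They were named by the platform annotation (34945 probe sets with 1 symbol, 932 with several, 9160 with none, and 64 Affymetrix controls left out), and 34741 had an Entrez identifier in the RefSeq gene table of GRCm38.p6. Each gene was represented by its brightest probe set, by the mean of all 6 arrays. Controls 2 and 3 were averaged on the log2 scale and counted as 1 replicate. Their SD over bright probe sets (0.115) was over that of 18 hybridization control spots for the same pair (0.0824) and within the range of those spots over all pairs (0.0812 to 0.134). Groups were compared with lmFit and eBayes of limma 3.58.1 (R 4.3.3), with Benjamini-Hochberg adjustment over all 12994 genes and a threshold of 0.05. The script was tested on simulated data. Promoter windows were RefSeq sequences on GRCm38.p6.

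Arrays with the same label number did not deviate together (correlations -0.0165, -0.000819 and -0.0549 over 12994 genes), so the numbers were not taken as pairs. The members, the other lists and the tests were chosen with earlier results of these data known. Values on every array are given for members past the threshold and, in each role group, for those with the smallest p and the lowest difference, and of each other list up to 4 genes with the smallest p are named. Alternatives changed the replicates counted or left out, the filter, the floor, the scaling, the eBayes options, the choice of probe set and a sex block.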

Additional observations from a re-analysis of the deposited data

How the results depend on the processing

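Members higher numbered 4, and 11 with all 6 arrays as separate replicates, 0 to 8 when replicates were left out, 0 with no filter on dim probe sets and 2 with the floor at 1. The genes higher over all genes numbered 580 and the genes lower over all genes 605. These counts were 1118 and 1234 with all 6 arrays, 3 to 827 and 1 to 833 when replicates were left out, 70 and 92 with no filter, and the lower count was 348 with the floor at 1. The 6 other replication and cell cycle genes called higher became 19 with all 6 arrays, 0 to 16 when replicates were left out, 0 with no filter, 14 with the filter at 64, 3 with the floor at 1, 11 with the trend and robust options and 10 with the mean of a gene's probe sets. The 1 called lower became 3 with all 6 arrays and 0 to 2 when replicates were left out. With all 6 arrays and the label number as a replicate block, 7 members, 994 genes higher and 1108 lower, and 19 and 3 of the other lists were called. The numbers do not pair the samples.

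Direction changed in 10 of 1012 values of 60 named genes, all of genes not called. When replicates were left out, Rfc2 ran from -0.090 to 0.11 (above 0 without control 3, at 0.012, and without replacement 3), Cdc45 from -0.084 to 0.30 (below 0 without controls 2 and 3, at -0.071, and without replacement 2), Rfc5 from -0.20 to 0.079 (above 0 without controls 2 and 3, and without replacement 1, at 0.046), Pola2 from -0.38 to 0.11 (above 0 without replacement 1) and Orc1 from -0.24 to 0.12 (above 0 without replacement 2). With the mean of a gene's probe sets Orc1 was 0.36 and Slbp -0.086. The cause was not tested. Of the 4 called members, Rrm2 lost its call in 4 of 17 alternatives, with adjusted p from 0.00147 to 0.182 over all of them, Mcm5 in 5 (0.00304 to 0.208), Dbf4 in 6 (0.00975 to 0.286) and Cdc6 in 7 of 16 (0.0106 to 0.293). Each kept its direction in all of them.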
